A study of Mus musculus with 14 samples.

Results

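The genes described here encode the proteins that AUTS2 is known to work with in a variant form of Polycomb repressive complex 1 (PRC1), the form built on PCGF3 or PCGF5. The members are Pcgf3, Pcgf5, Ring1, Rnf2, Rybp, Yaf2, Csnk2a1, Csnk2a2, Csnk2b and Ep300. They were chosen by gene symbol, and the deposited transcript values of each symbol were summed. They make up 10 of the 51626 genes listed in the tables, and all 10 were found in each of the 3 tables. Together they carried 57 annotated transcripts. On GRCm38, Pcgf3 (ENSMUSG00000033623.13) lies at chr5:108461232-108506976 on the plus strand, and Pcgf5 (ENSMUSG00000024805.16) at chr19:36348309-36460970 on the plus strand. Ring1 (ENSMUSG00000024325.8) lies at chr17:34020792-34024680 and Rnf2 (ENSMUSG00000026484.13) at chr1:151458004-151500955, both on the minus strand. Rybp (ENSMUSG00000072872.3) lies at chr6:100228565-100287485 and Yaf2 (ENSMUSG00000022634.9) at chr15:93284278-93336935, both on the minus strand. Csnk2a1 (ENSMUSG00000074698.10) lies at chr2:152226839-152281852 on the plus strand, Csnk2a2 (ENSMUSG00000046707.9) at chr8:95446096-95490039 and Csnk2b (ENSMUSG00000024387.13) at chr17:35116196-35122053 on the minus strand, and Ep300 (ENSMUSG00000055024.12) at chr15:81585351-81652077 on the plus strand.

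The series asked which transcripts depend on Auts2, and which are held in an AUTS2-containing complex, in the newborn mouse cortex. RNA from 14 libraries of postnatal day 0.5 was sequenced. The conditional knockout (cKO) group held 4 frontal cortex libraries from C57BL6/J mice in which exon 15 of Auts2 was floxed on both alleles and Cre was expressed from Emx1. Emx1 is active in the lineage of cortical excitatory neurons, so interneurons, microglia and vessels keep the gene. The wild type (WT) group held 4 frontal cortex libraries from C57BL6/J mice. The RNA immunoprecipitation (RIP) group held 2 libraries in which RNA of WT C57BL6/J cortex was pulled down with an AUTS2 antibody raised to the C-terminal end. The IgG group held 2 libraries pulled down with control IgG, and the Input group 2 libraries of 10% input. RIP, IgG and Input libraries of the same letter, A or B, came from the same pool of 2 neonates. Mice with floxed alleles or Cre, but not both, were not analysed here. The labels call the libraries biological replicates.

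PRC1 complexes place a single ubiquitin on histone H2A, a mark of Polycomb-repressed chromatin, and RING1 or RNF2 is the catalytic ligase. The PCGF subunit sets the type of complex, and RYBP or its paralog YAF2 is shared by the variant types and stimulates the ligase. AUTS2 joins the PCGF3 and PCGF5 types and brings in casein kinase 2 and the acetyltransferase P300, which in human cells turns the complex from repression to activation of transcription.

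Values are FPKM, fragments scaled to transcript length and library size, so levels of different genes are on one scale per length. The depth of the libraries is unknown, because the files hold no counts. Frontal cortex libraries held 60668 to 63043 transcripts above 0, RIP libraries 56312 to 57726, IgG libraries 46739 and 52158, and Input libraries 44946 and 46758. Auts2 itself stood at 29.8, 35.2, 30.4 and 34.5 FPKM in the cKO libraries, against 87.7, 92.2, 55.9 and 60.2 FPKM in the WT libraries (log2 fold change -1.13, SE 0.14, adjusted p = 0.0237, limma). The cKO and WT values did not overlap, and the log2 fold change stayed between -1.26 and -1.02 with any library left out, but the call held in 2 of those 8 fits (adjusted p 0.00472 to 0.123, limma). The call was also lost with no filter (adjusted p = 0.238), without trend and robust settings (0.0798), with Xist state as a covariate (0.0706) and with the most abundant transcript only (0.206), all by limma. Without WT 1 and WT 2, its 2 highest libraries, the log2 fold change was -0.82 (adjusted p = 0.0572, limma), and without these and cKO 1 it was -0.78 (adjusted p = 0.00312, limma). WT 1 and WT 2 correlated at r = 0.993 with each other and at 0.984 to 0.987 with the other libraries except cKO 1, across genes on the log2 scale. The library cKO 1 correlated at 0.980 to 0.986 with all others, and the remaining 5 libraries at 0.992 to 0.994 among themselves. Results of the frontal cortex are therefore also given without these libraries. Xist stood at 212 to 250 FPKM in cKO 1, 2 and 3 and at 217 FPKM in WT 2, and at 0.0854 to 0.397 FPKM in cKO 4 and WT 1, 3 and 4, so the sexes are unevenly spread over the groups. Summed over the 9 markers of cortical excitatory neurons, the cKO libraries held 898 to 1101 FPKM and the WT libraries 1033 to 1121 FPKM. The 8 interneuron markers summed to 406, 271, 282 and 326 FPKM in the cKO libraries, with cKO 1 highest, against 264 to 273 FPKM in the WT libraries. No marker of either list was called. The median log2 fold change was -0.13 over the excitatory neuron markers and 0.05 over the interneuron markers. The part of these differences in the results below was not tested. Choroid plexus markers summed to at most 0.818 FPKM.

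In the newborn frontal cortex, all 10 genes were transcribed, and their levels ran over more than an order of magnitude. Csnk2b, the regulatory subunit of casein kinase 2, was highest, with 66.0 ± 2.24 FPKM in cKO and 65.6 ± 3.27 FPKM in WT libraries (SD, n = 4 each). The main catalytic subunit gene Csnk2a1 followed at 45.7 ± 1.06 FPKM in cKO and 45.6 ± 0.942 FPKM in WT libraries, and then Rnf2 at 42.8 ± 2.28 FPKM in cKO and 40.9 ± 1.05 FPKM in WT libraries. The ranges of Csnk2a1 and Rnf2 overlapped in the cKO libraries and did not overlap in the WT libraries. Yaf2, Csnk2a2, Pcgf3, Ep300, Rybp and Ring1 came next, in that order in both groups. In the cKO libraries the ranges of Pcgf3 and Ep300 and those of Ep300 and Rybp overlapped. In the WT libraries those of Yaf2 and Csnk2a2, of Pcgf3 and Ep300, and of Rybp and Ring1 overlapped. Pcgf5 was far below the rest, at 1.00 ± 0.333 FPKM in cKO and 1.41 ± 0.181 FPKM in WT libraries. Among the 12786 genes that averaged at least 1 FPKM, Csnk2b stood at the 92.2nd percentile of level and Pcgf5 at the 3.10th.

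**Figure D1:**
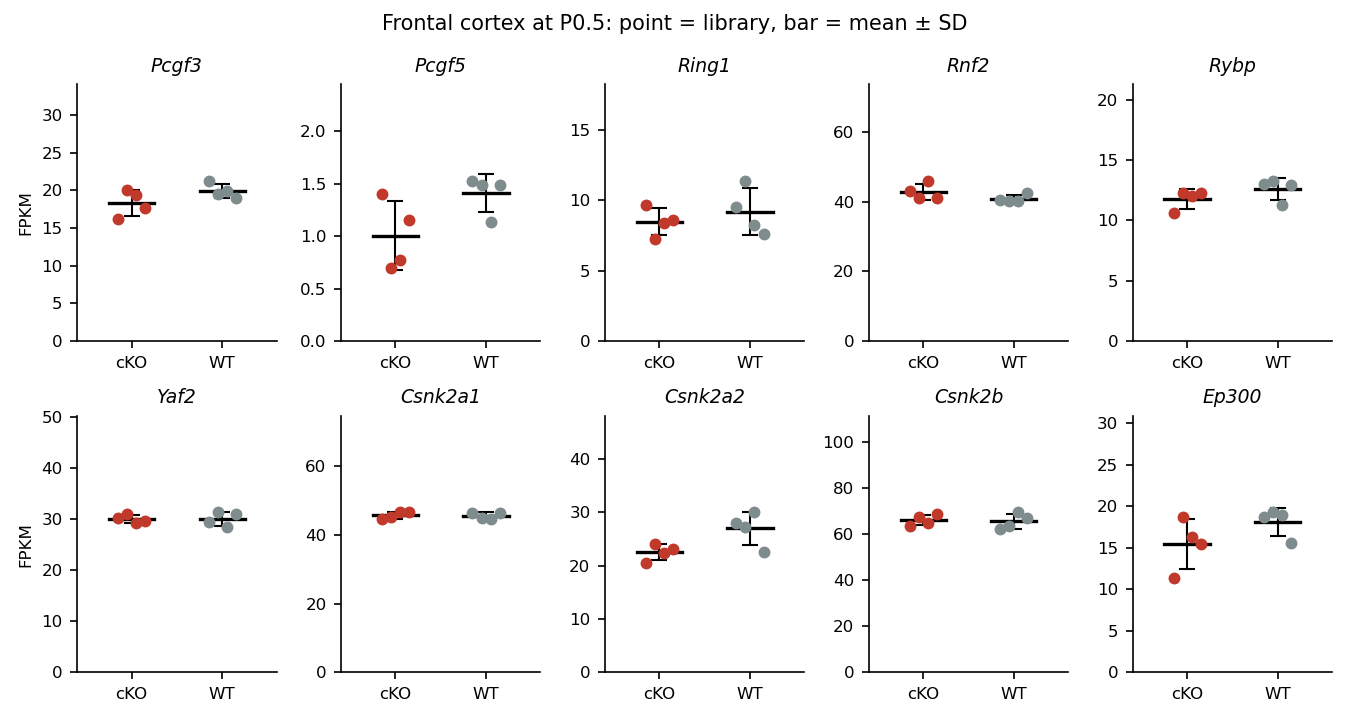
FPKM of each of the 10 genes in the frontal cortex libraries of cKO (left) and WT (right) mice at P0.5, with each point a library and bars at the mean ± SD of 4 libraries. The points of cKO and WT overlap in every panel, and Csnk2a2 shows 3 WT libraries at 27.3 to 30.0 FPKM above the 4 cKO libraries at 20.5 to 24.1 FPKM.

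No change between cKO and WT passed the test for any of these genes. With the limma fit across all genes, 0 of the 10 members passed an adjusted p of 0.05, where 3 of 12786 genes (0.0235%) passed. Unadjusted p was under 0.05 for 2 members, Csnk2a2 and Pcgf5, and for 7.91% of all genes. The values of cKO and WT overlapped for each of the 10, while they did not overlap for 4.41% of all genes. The median log2 fold change was -0.09 over the members and 0.00 over all genes. In bulk tissue, fewer cells of a type and less RNA per cell cannot be told apart.

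Of the PCGF subunits, Pcgf3 stood at 16.2, 20.0, 19.4 and 17.7 FPKM in the cKO libraries, against 21.3, 19.5, 19.9 and 19.0 FPKM in the WT libraries. Its log2 fold change was -0.12, with a 95% interval of -0.30 to 0.06. Pcgf5 stood at 1.40, 0.692, 0.773 and 1.15 FPKM in the cKO libraries, against 1.53, 1.49, 1.14 and 1.49 FPKM in the WT libraries. Pcgf5 had the most negative estimate of the members, -0.28 (SE 0.13, adjusted p = 0.631, limma), at a level near the filter. Its low values lay in cKO 2 and cKO 3, and cKO 1 was within the WT range.

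Neither ligase gene passed, and the cKO and WT values overlapped for each. Ring1 stood at 9.65, 7.28, 8.41 and 8.63 FPKM in the cKO libraries, against 9.54, 11.4, 8.26 and 7.62 FPKM in the WT libraries (log2 fold change -0.09, interval -0.36 to 0.17). Its WT values were themselves spread, with WT 2 highest. Rnf2 stood at 43.0, 41.1, 46.0 and 41.1 FPKM in the cKO libraries, against 40.5, 40.3, 40.2 and 42.4 FPKM in the WT libraries (log2 fold change 0.06, interval -0.07 to 0.20). Of the 10 genes, 3 had a positive estimate, and that of Rnf2 was the highest.

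Rybp stood at 10.6, 12.3, 12 and 12.3 FPKM in the cKO libraries, against 13.0, 13.3, 11.3 and 12.9 FPKM in the WT libraries (log2 fold change -0.09, interval -0.27 to 0.09). Yaf2 stood at 30.3, 31.0, 29.3 and 29.7 FPKM in the cKO libraries, against 29.5, 31.4, 28.5 and 31.0 FPKM in the WT libraries. The interval of Yaf2, -0.14 to 0.14 on the log2 scale, lies among the narrowest of the 10. Rybp-ps, an annotated pseudogene of Rybp whose reads can be hard to separate from it, stood at 0.368 to 0.846 FPKM in the cKO and 0.149 to 0.843 FPKM in the WT libraries.

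Within casein kinase 2, Csnk2a2, the second catalytic subunit, was the member nearest to a difference. It stood at 20.5, 24.1, 22.3 and 23.1 FPKM in the cKO libraries, against 28.0, 27.3, 30.0 and 22.6 FPKM in the WT libraries. Its log2 fold change was -0.25 (SE 0.09, interval -0.44 to -0.05), with an adjusted p of 0.628 (limma). The library WT 4 lay inside the cKO range, so the groups overlapped. Csnk2a1 stood at 44.5, 45.1, 46.6 and 46.6 FPKM in the cKO libraries, against 46.5, 45.0, 44.6 and 46.3 FPKM in the WT libraries. Csnk2b stood at 63.6, 67.3, 64.7 and 68.5 FPKM in the cKO libraries, against 62.3, 63.6, 69.5 and 67.0 FPKM in the WT libraries. The intervals were -0.12 to 0.13 for Csnk2a1 and -0.12 to 0.14 for Csnk2b.

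Ep300, the gene of the acetyltransferase P300, stood at 11.4, 18.7, 16.3 and 15.5 FPKM in the cKO libraries, against 18.7, 19.3, 18.9 and 15.6 FPKM in the WT libraries. Its estimate of -0.23 (SE 0.13, adjusted p = 0.641, limma) rested largely on cKO 1, the lowest of the 8. Without cKO 1 it was -0.10, without WT 1 and WT 2 it was -0.16, and without all 3 it was -0.03. Csnk2a2 stayed between -0.16 and -0.21 under these omissions, at adjusted p of 0.58 to 1 (limma). Without WT 1 and WT 2 the estimates of Ring1, Csnk2b and Yaf2 turned to 0.08, -0.05 and 0.02, and without all 3 libraries those of Ring1, Csnk2b, Yaf2 and Rybp were 0.03, -0.03, 0.01 and 0.01. No member was called under any of the 3 omissions, while the count of all genes called was 3 without cKO 1, 0 without WT 1 and WT 2, and 4 without all 3.

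At the level of transcripts, each of the PRC1 genes had most of its FPKM in 1 protein-coding transcript in the frontal cortex, and none of the 23 member transcripts tested was called (limma). A single transcript of all 26835 tested (0.00373%) was called. Unadjusted p was under 0.05 for 5.68% of all transcripts and for 1 member transcript, the retained-intron transcript Rybp-203, which averaged 0.632 ± 0.277 FPKM in cKO and 1.51 ± 0.446 FPKM in WT libraries (n = 4 each). The share of Rybp carried by transcripts not annotated as protein coding was 4.96% to 10.2% in the cKO libraries and 12.5% to 16.0% in the WT libraries. These ranges do not overlap, whereas the cKO and WT ranges of this share overlapped for every other member. The share was not tested against other genes, so how often it separates the groups over all genes is not known. Rybp-203 itself did not pass (log2 fold change -0.61, adjusted p = 0.827, limma). Rybp-201, the coding transcript, averaged 10.9 ± 0.953 FPKM in cKO and 10.9 ± 0.712 FPKM in WT libraries. For Pcgf3-201, Pcgf5-201, Rnf2-201, Csnk2a1-201 and Csnk2b-201 the share of the gene's FPKM was 88.0% to 99.9% in cKO and 86.6% to 99.7% in WT libraries.

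The other genes were split. Ring1-201 carried 87.7% of Ring1 in cKO and 79.0% in WT libraries, and the retained-intron transcript Ring1-203 carried 11.7% in cKO and 14.3% in WT libraries. Ep300-201, the full-length coding transcript, carried 70.5% of Ep300 in cKO and 73.3% in WT libraries, and the retained-intron transcript Ep300-207 13.0% in cKO and 12.6% in WT libraries. Csnk2a2 was spread over 4 coding transcripts, of which the short Csnk2a2-207 carried 30.5% in cKO and 31.3% in WT libraries. Csnk2a2-201 carried 22.3% in cKO and 21.6% in WT libraries, Csnk2a2-203 21.4% in cKO and 20.0% in WT libraries, and Csnk2a2-209 11.5% in cKO and 11.0% in WT libraries. These are estimates that divide reads shared between overlapping transcripts.

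Yaf2 had a large share in a transcript annotated for nonsense-mediated decay, the pathway that removes RNA with an early stop codon. Yaf2-202, of 1870 bases, has an exon that the coding Yaf2-201, of 1676 bases, lacks. This is exon 3 of 5, whereas Yaf2-201 has 4 exons. The exon alone does not make up the difference in length. The exon has 70 bases and lies at chr15:93317539-93317608 of GRCm38 on the minus strand. Its first 55 bases, at chr15:93317554-93317608, are shown 5′ to 3′ from the GENCODE vM21 transcript because they hold the early stop, which is in capitals after 52 coding bases.
Yaf2-202 exon 3: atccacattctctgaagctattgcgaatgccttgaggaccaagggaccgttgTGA
Of the FPKM of Yaf2, Yaf2-202 took 38.9%, 24.8%, 27.8% and 42.4% in the cKO libraries, against 35.5%, 39.8%, 31.4% and 41.7% in the WT libraries. The groups overlapped, and cKO 2 and cKO 3 held the lowest shares. The share in the pull-down was 34.2% in RIP A and 61.9% in RIP B, against 16.2% in IgG A and 49.9% in IgG B. In Input A and B it was 33.7% and 33.2%. The RIP pair and the IgG pair thus each spread widely and overlapped, with trio B higher than trio A in both.

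**Figure D2:**
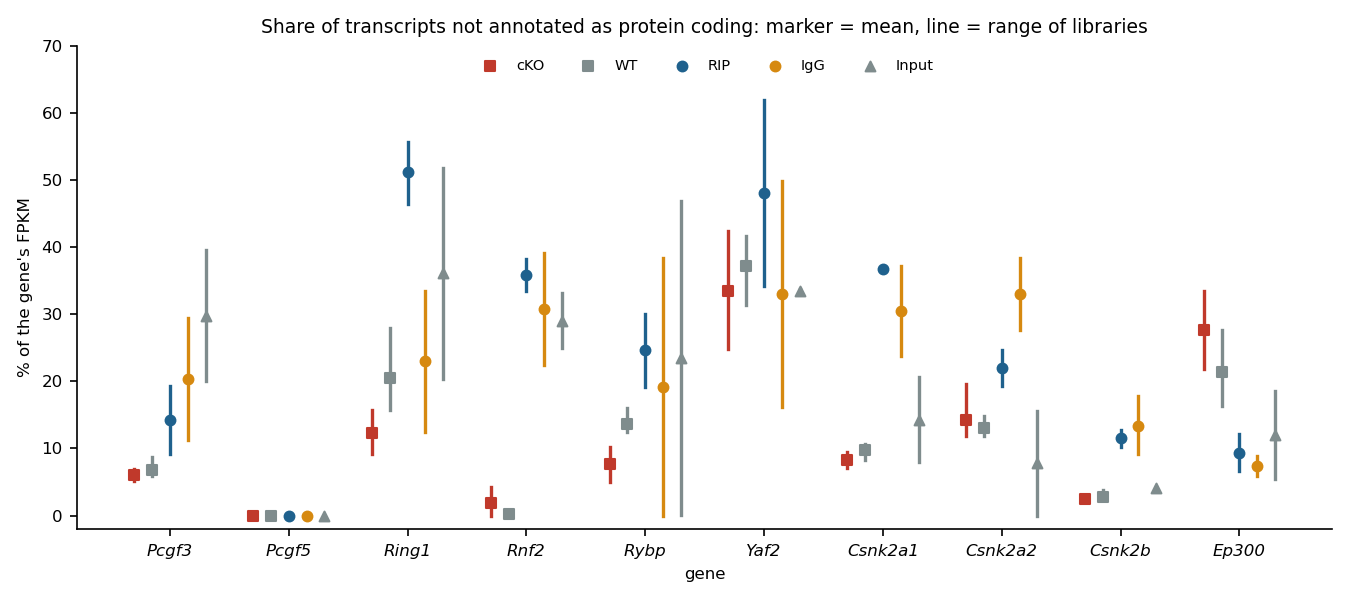
Share of each gene's FPKM, in percent, carried by transcripts not annotated as protein coding, in cKO and WT frontal cortex and in RIP, IgG and Input libraries. Markers are means and lines the range of the libraries (4 for cKO and WT, 2 for the others). Rnf2 and Csnk2a1 stand at most at 10.7% in frontal cortex and at 33.5% to 38.2% in the RIP libraries. In the IgG libraries Rnf2 stands at 22.5% to 39.1% and Csnk2a1 at 23.7% to 37.2%. In the Input libraries they stand at 24.9% to 33.2% and at 7.98% to 20.7%.

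In the AUTS2 pull-down, a value is a share of the RNA in that library, so a higher value means more of that RNA relative to the other RNA pulled down. Against IgG, Ep300 RNA was higher and Rnf2 RNA lower in the AUTS2 RIP, and the other 7 genes tested did not pass. The 2 calls of 9 compare with 3406 of 14570 genes (23.4%), of which 13.7% of all genes were higher and 9.69% lower. The members' share is near that background. In 7 of the 9 members the values of RIP and IgG did not overlap, against 64.4% of all genes. The median log2 fold change was 0.08 over the 9 members and 0.02 over all genes. The 8 proliferation markers summed to 94.5 and 103 FPKM in RIP, against 55.9 and 68.9 FPKM in IgG libraries, with Mki67, Top2a and Mcm2 called higher, and their part in these results was not tested.

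Ep300 stood at 50.6 and 54.1 FPKM in RIP, against 32.7 and 35.3 FPKM in IgG libraries. RIP was 1.54 times IgG in trio A and 1.53 times in trio B, and the groups were well apart. The log2 fold change was 0.61 (SE 0.12, adjusted p = 0.0159, limma). With quantile normalization it was 0.39 and did not pass (adjusted p = 0.0671, limma). Rnf2 stood at 10.8 and 11.1 FPKM in RIP, against 16.6 and 22.3 FPKM in IgG libraries. Its RIP values were close together, and its IgG values spread over a wider range. RIP was 0.651 times IgG in trio A and 0.497 times in trio B (log2 fold change -0.76, SE 0.19, adjusted p = 0.0331, limma). Rnf2 lost the call with no filter (adjusted p = 0.0613, limma) and with the most abundant transcript only (adjusted p = 0.0707, limma). Without trend and robust settings, neither Rnf2 (adjusted p = 0.0764, limma) nor Ep300 (adjusted p = 0.0738, limma) passed. Rnf2 overlaps the gene Trmt1l, and the sources used here do not say whether the deposited counting used strand, so its values could include reads of that gene. Trmt1l stood at 7.17 and 7.45 FPKM in RIP, against 6.32 and 4.59 FPKM in IgG libraries.

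The remaining subunits did not pass. Pcgf3 stood at 16.3 and 18.4 FPKM in RIP, against 22.3 and 27.6 FPKM in IgG libraries (log2 fold change -0.50, adjusted p = 0.0747, limma). With quantile normalization it passed (-0.63, adjusted p = 0.0452, limma), while Ep300 did not, so the count of members called stayed at 2. Pcgf5 averaged less than 1 FPKM and was not tested. It stood at 0.315 and 1.15 FPKM in RIP, against 0.433 and 0.901 FPKM in IgG libraries. Ring1 stood at 6.80 and 7.33 FPKM in RIP, against 4.11 and 6.01 FPKM in IgG libraries, with an estimate of 0.43 (interval -0.15 to 1.01) that turned to -0.12 with protein-coding transcripts only and with the most abundant transcript only. For Yaf2 the values were 9.91 and 12 FPKM in RIP, against 13.7 and 16.2 FPKM in IgG libraries (-0.42, adjusted p = 0.151, limma). Rybp stood at 10.7 and 11.2 FPKM in RIP, against 10.9 and 9.58 FPKM in IgG libraries, and its groups overlapped. Rybp-ps reached 3.81 FPKM in IgG A and 2.11 FPKM in RIP A, so Rybp values of the pull-down are less certain than those of the cortex.

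The casein kinase 2 genes lay close to IgG. Csnk2a1 stood at 6.69 and 8.34 FPKM in RIP, against 8.85 and 8.95 FPKM in IgG libraries (interval -0.70 to 0.25). Csnk2a2 stood at 17.8 and 16.2 FPKM in RIP, against 15.7 and 15.1 FPKM in IgG libraries (interval -0.22 to 0.50). Csnk2b stood at 34.7 and 38.0 FPKM in RIP, against 32.5 and 35.9 FPKM in IgG libraries (interval -0.22 to 0.39). Each interval includes 0, and none of these genes is shown to be unchanged by it.

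Across all genes, the RIP to IgG fold rose with transcript length. The median log2 fold change was -0.11 for genes of mean transcript length under 2000 bases, 0.08 from 2000 to 5000 bases and 0.24 above. Ep300 averaged 8701 bases and 50.6% GC, and Rnf2 2184 bases and 42.0% GC. The trends with length and with GC content were removed together, and the part of each was not tested. With the trends with length and GC content removed, the fold changes were 0.22 for Ep300 (adjusted p = 0.227, limma) and -0.42 for Rnf2 (adjusted p = 0.148, limma), and 0 of 9 members were called. Each of the 4 fits that left out RIP A, RIP B, IgG A or IgG B also called 0 members. Genes called then numbered 794, 1036, 0 and 1806, and the lone library of an arm was assumed to vary like the others.

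**Figure D3:**
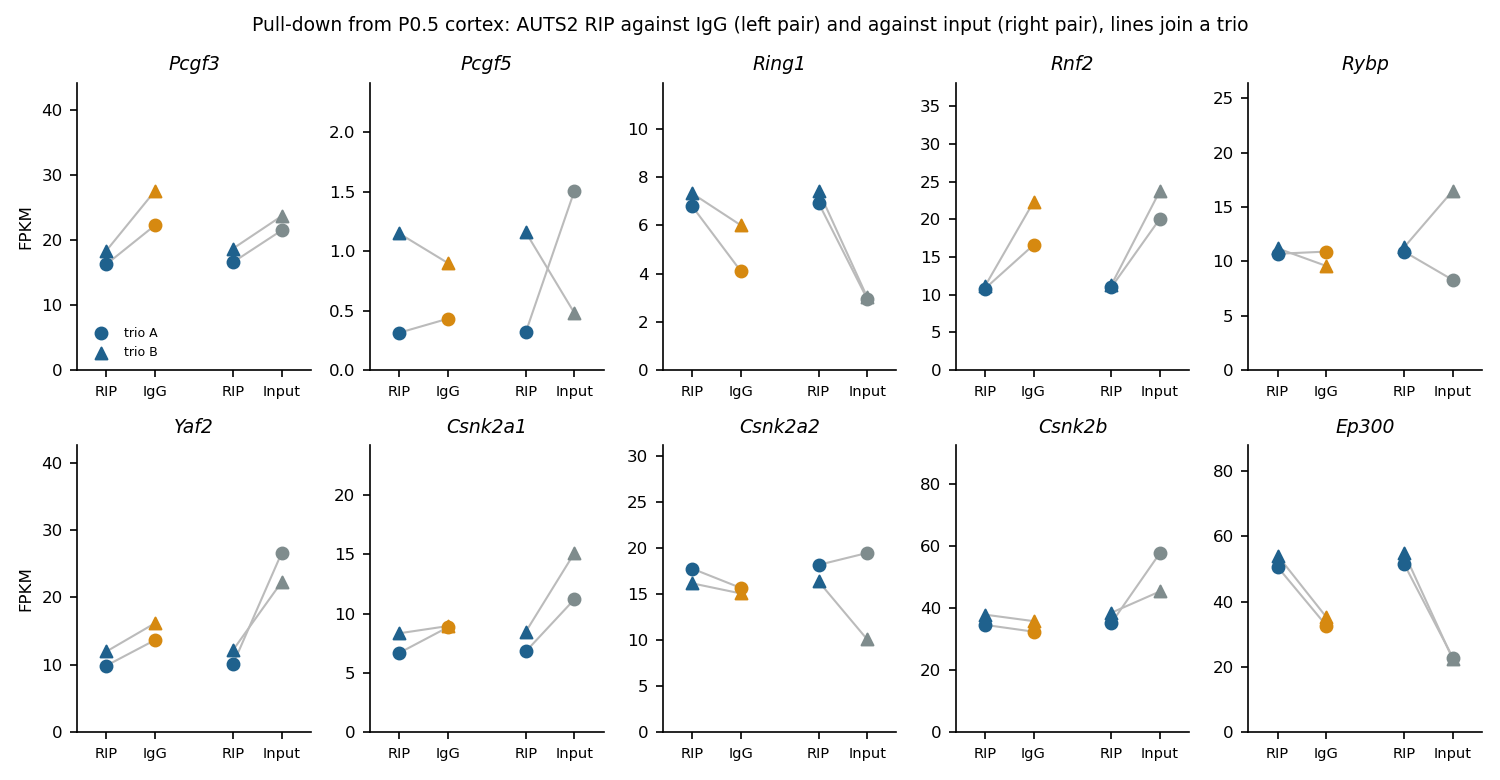
FPKM of each gene in the AUTS2 pull-down from P0.5 cortex, with RIP left of IgG as deposited in their common table and RIP left of Input as deposited in theirs. Circles are trio A, triangles trio B, and lines join libraries of a trio. Ep300 shows RIP above IgG and Input in both trios, and Rnf2 shows RIP below them.

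Against the input, 5 of 9 members tested passed. Ep300 and Ring1 were higher in the RIP, and Yaf2, Rnf2 and Csnk2a1 were lower. Among all 14458 genes, 5188 passed (35.9%), with 19.3% of all genes higher and 16.6% lower. In 7 of 9 members the values did not overlap, against 71.1% of all genes. The median log2 fold change was -0.34 over the members and -0.02 over all genes. The RIP libraries are the same as in the comparison with IgG, scaled by 1.018 (A) and 1.015 (B), so the comparisons share them. IgG libraries lay on the same side of the Input libraries as RIP for Ep300, Ring1, Yaf2 and Csnk2a1. In that order, IgG values were 32.7 and 35.3, 4.11 and 6.01, 13.7 and 16.2, and 8.85 and 8.95 FPKM. For Rnf2, IgG (16.6 and 22.3 FPKM) and Input (20.1 and 23.8 FPKM) overlapped. Ring1, Yaf2 and Csnk2a1 did not pass against IgG. IgG was not tested against Input, so the part of these differences shared with IgG was not tested.

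Ep300 stood at 51.5 and 54.9 FPKM in RIP, against 22.9 and 22.4 FPKM in Input libraries (log2 fold change 1.20, SE 0.11, adjusted p = 0.00143, limma). The fold was 2.25 in trio A and 2.45 in trio B. This was the largest rise of the members. Ring1 stood at 6.93 and 7.44 FPKM in RIP, against 2.95 and 3.02 FPKM in Input libraries (1.04, SE 0.21, adjusted p = 0.0130, limma). The retained-intron transcript contributed to this sum. With protein-coding transcripts only, it was 0.65 (adjusted p = 0.128, limma), and Ring1-203, which retains an intron, averaged 2.99 ± 0.652 FPKM in RIP and 1.07 ± 0.642 FPKM in Input libraries (n = 2 each).

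Yaf2 stood at 10.1 and 12.2 FPKM in RIP, against 26.6 and 22.3 FPKM in Input libraries (-1.07, SE 0.17, adjusted p = 0.00647, limma), the largest fall of the members. Rnf2 stood at 11.0 and 11.3 FPKM in RIP, against 20.1 and 23.8 FPKM in Input libraries (-0.92, SE 0.16, adjusted p = 0.00779, limma). Ring1 and Rnf2, the alternative ligase genes, thus moved in opposite directions. Ring1 did not pass with protein-coding transcripts only or with length and GC trends removed. Csnk2a1 stood at 6.81 and 8.47 FPKM in RIP, against 11.2 and 15.1 FPKM in Input libraries. Its fall of -0.70 was near the threshold (SE 0.22, adjusted p = 0.0497, limma) and had adjusted p of 0.0525 and 0.0554 with median-ratio rescaling and quantile normalization (limma).

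The other members did not pass. Csnk2b stood at 35.3 and 38.6 FPKM in RIP, against 57.9 and 45.5 FPKM in Input libraries (-0.46, adjusted p = 0.0555, limma). It passed with a filter at 5 FPKM (adjusted p = 0.0343, limma), with quantile normalization (-0.70, adjusted p = 0.0243, limma), with protein-coding transcripts only (-0.58, adjusted p = 0.0235, limma), with the most abundant transcript only (-0.75, adjusted p = 0.0157, limma) and without Input B. Csnk2b overlaps Gpank1, which stood at 8.28 and 7.76 FPKM in RIP, against 5.21 and 6.11 FPKM in Input libraries. Pcgf3 stood at 16.6 and 18.7 FPKM in RIP, against 21.5 and 23.7 FPKM in Input libraries (-0.34, adjusted p = 0.116, limma). Rybp stood at 10.9 and 11.3 FPKM in RIP, against 8.29 and 16.5 FPKM in Input libraries, where the Input pair lies on both sides of the RIP pair. The same holds for Csnk2a2, at 18.2 and 16.4 FPKM in RIP, against 19.5 and 10.1 FPKM in Input libraries. In Input A and B, Rybp-201 stood at 8.28 and 8.79 FPKM and the retained-intron Rybp-203 at 0 and 6.32 FPKM. The short Csnk2a2-210, of 714 bases, stood at 9.15 and 0 FPKM in Input A and B. Pcgf5 was not tested, with 0.320 and 1.16 FPKM in RIP, against 1.51 and 0.480 FPKM in Input libraries.

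The relation with length was steeper here, with a median log2 fold change of -0.27 for genes under 2000 bases, 0.11 from 2000 to 5000 bases and 0.37 above. With the length and GC trends removed, Ep300 (0.63, adjusted p = 0.0123, limma), Rnf2 (-0.52, adjusted p = 0.0457, limma) and Yaf2 (-0.61, adjusted p = 0.0448, limma) passed. Ring1 (0.63, adjusted p = 0.0719, limma) and Csnk2a1 (-0.57, adjusted p = 0.0923, limma) did not. Leaving out RIP A, RIP B, Input A or Input B left 1, 2, 3 and 5 members called, with 1395, 1905, 3461 and 3471 of all genes. Without Input B, the 5 include Csnk2b (-0.63, adjusted p = 0.0449, limma), which was not called with all libraries. Ring1 and Rnf2 lost the call without either RIP library, Yaf2 without RIP A or Input A, and Csnk2a1 in all 4. Ep300 was called in each of these 4 fits (log2 fold change 1.15 to 1.24, adjusted p 0.0249 to 0.0319, limma). Markers of radial glia summed to 277 and 294 FPKM in RIP, against 393 to 434 FPKM in Input libraries, while 1 of the 8, Fabp7, was called lower and the list's median log2 fold change was 0.23. Those of red blood cells summed to 19.1 and 39.3 FPKM in RIP, against 67.0 to 77.3 FPKM in Input libraries. Their part in these results was not tested.

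**Figure D4:**
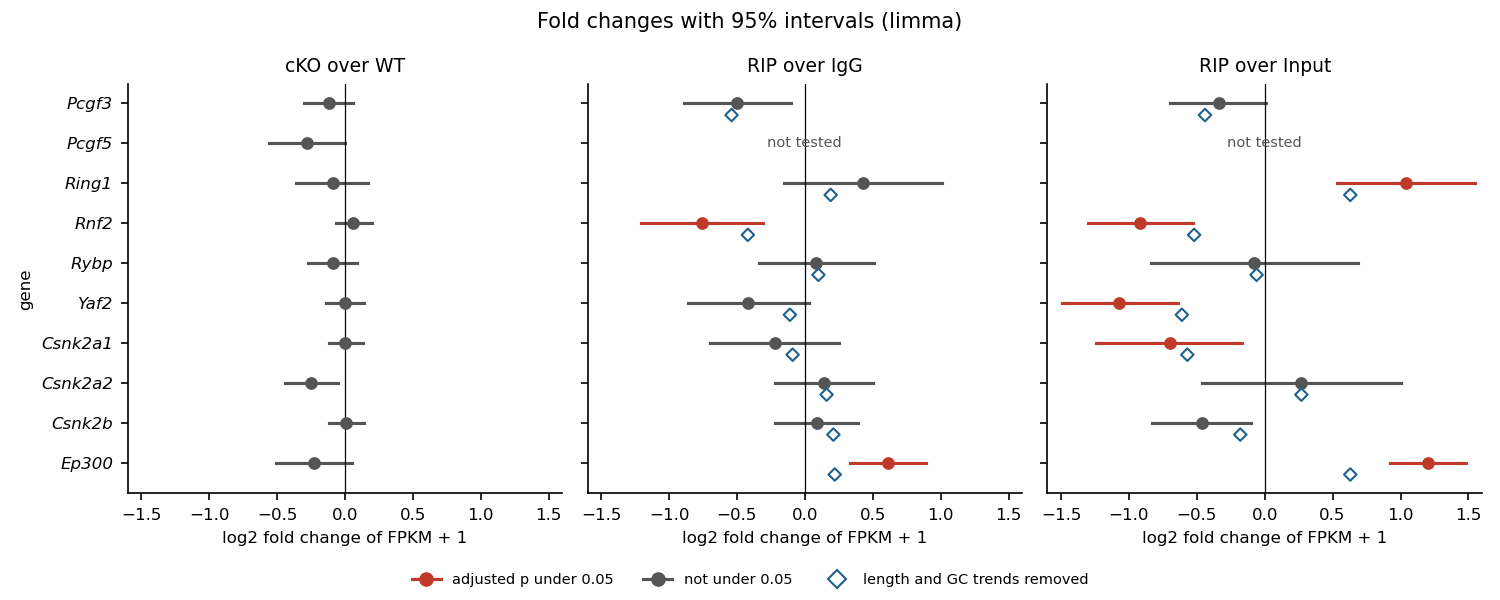
Log2 fold change of FPKM + 1 with 95% intervals (limma) for each gene in cKO over WT, RIP over IgG and RIP over Input, and, as open diamonds, the fold change with length and GC trends removed. In the cKO comparison all 10 estimates lie between -0.28 and 0.06, while against Input they run from -1.07 for Yaf2 to 1.20 for Ep300.

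Among single transcripts of the members, 2 of 23 tested were called against Input, where 6.83% of 31322 transcripts were. Ep300-201 stood at 48.1 and 45.8 FPKM in RIP, against 18.6 and 20.3 FPKM in Input libraries (1.23, SE 0.11, adjusted p = 0.0303, limma). Csnk2b-201 stood at 25.5 and 24.7 FPKM in RIP, against 43.1 and 42.9 FPKM in Input libraries (-0.75, SE 0.10, adjusted p = 0.0390, limma). With the trio as a block, both lost the call at the same fold change (adjusted p = 0.0657 for Ep300-201 and 0.0853 for Csnk2b-201, limma). Leaving out any of the 4 libraries left 0 called. Against IgG, 0 of 26 member transcripts and 0 of 31785 transcripts (0%) were called with limma, while unadjusted p was under 0.05 for 4 member transcripts and for 22.6% of all transcripts.

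The share in short or intron-retaining transcripts differed between the pull-down tables and the cortex table, in both directions. Transcripts of Ep300 not annotated as protein coding took 9.33% in RIP, 7.36% in IgG and 12% in Input libraries, against 27.7% in cKO and 21.4% in WT cortex. Rnf2-202, an untranslated transcript of 570 bases, took 30.7% of Rnf2 in RIP, 31.4% in IgG and 28.7% in Input libraries, and all non-coding transcripts of Rnf2 together took 1.93% in cKO and 0.316% in WT cortex. Csnk2a1-204, which retains an intron, took 30.3% of Csnk2a1 in RIP, against 21.2% in IgG and 8.14% in Input libraries, and all non-coding transcripts of Csnk2a1 took 8.26% in cKO and 9.75% in WT cortex. Ring1-203 took 41.6% of Ring1 in RIP, against 18.9% in IgG and 35.9% in Input libraries. All non-coding transcripts of Ring1 took 46.4% to 55.7% in RIP, 12.5% to 33.5% in IgG and 20.4% to 51.8% in Input libraries. The Input range thus overlapped that of RIP. Those of Csnk2a1 took 36.3% to 37.0% in RIP, inside the IgG range of 23.7% to 37.2%. Neither Ring1-203 nor Csnk2a1-204 was called against IgG or Input. The cortex and the pull-down were dissected, extracted and made into libraries by different protocols and were put in separate tables, so kit and source cannot be told apart here.

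Single transcripts were also less steady in the pull-down. Rybp-203 stood at 3.21 and 1.37 FPKM in RIP, against 3.10 and 0 FPKM in IgG libraries, and at 0 and 6.32 FPKM in Input A and B. Pcgf3-205, which retains an intron, stood at 0 and 3.56 FPKM in RIP, against 0 and 8.13 FPKM in IgG libraries, and Pcgf3-203 was listed at 0 in both RIP libraries and in Input A, with 6.85 FPKM in Input B. Csnk2b-209 stood at 4.28 and 9.81 FPKM in RIP, against 7.14 and 0 FPKM in IgG libraries, and Csnk2b-204 at 4.41 and 2.67 FPKM in RIP, against 1.36 and 6.38 FPKM in IgG libraries. Csnk2a2-210 stood at 5.98 and 3.63 FPKM in RIP, against 2.87 and 2.83 FPKM in IgG libraries, and at 9.15 and 0 FPKM in Input A and B. Csnk2a2-208 stood at 0.476 and 0 FPKM in RIP, against 1.96 and 1.76 FPKM in IgG libraries. Csnk2a2-204 averaged 3.33 ± 0.218 FPKM in RIP and 0.342 ± 0.484 FPKM in Input libraries (n = 2 each, log2 fold change 1.74, adjusted p = 0.104, limma). Pcgf5-202 carried 91.3% of Pcgf5 in RIP and all of it in IgG and Input libraries, whereas Pcgf5-201 carried 99.9% in cKO and 94.6% in WT cortex.

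The balance between paralogs lay in overlapping ranges in cKO and WT cortex for all 4 pairs. In RIP the Rnf2 to Ring1 and Yaf2 to Rybp ratios lay below those of IgG and Input. The Csnk2a2 to Csnk2a1 ratio in RIP lay above those of IgG and Input. A ratio within a library does not depend on how that library was scaled. It can still depend on transcript length, GC content and which transcripts are summed. No test was made of these ratios, which are given as a description. For the ligases, the Rnf2 to Ring1 ratio ran from 4.46 to 5.64 in cKO and from 3.55 to 5.57 in WT libraries. It was 1.51 and 1.59 in RIP, against 3.71 and 4.04 in IgG and 6.84 and 7.87 in Input libraries. Against IgG, only Rnf2 of this pair passed the test, and Ring1 did not. With length and GC trends removed, the fold changes against IgG were -0.42 for Rnf2 and 0.19 for Ring1, in place of -0.76 and 0.43. With the most abundant transcript only, the mean log2 ratio of Rnf2 to Ring1 was 1.03 in RIP and 1.61 in IgG. With all transcripts it was 0.63 in RIP and 1.95 in IgG.

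The Yaf2 to Rybp ratio ran from 2.41 to 2.86 in cKO and from 2.27 to 2.52 in WT libraries, and was 0.927 and 1.08 in RIP, against 1.25 and 1.69 in IgG and 1.35 and 3.21 in Input libraries. The Input pair was wide, with Rybp at 8.29 FPKM in Input A and 16.5 FPKM in Input B. The coding Rybp-201 stood close together there, at 8.28 and 8.79 FPKM, while the retained-intron Rybp-203 stood at 0 and 6.32 FPKM. For the catalytic subunits of casein kinase 2, the Csnk2a2 to Csnk2a1 ratio ran from 0.461 to 0.534 in cKO and from 0.489 to 0.672 in WT libraries. It was 1.94 and 2.67 in RIP, against 1.68 and 1.77 in IgG and 0.672 and 1.74 in Input libraries. With the most abundant transcript only, its mean log2 value was -0.02 in RIP and -1.11 in IgG, in place of 1.19 and 0.79. The short Csnk2a2-204 and Csnk2a2-210 carried 19.3% and 28.3% of Csnk2a2 in RIP, and 21.0% and 18.6% in IgG libraries. Pcgf5 remained far below Pcgf3 in every library, at 0.0346 to 0.0868 of it in cKO and 0.0574 to 0.0783 in WT libraries, and at 0.0193 and 0.0622 in RIP, against 0.0194 and 0.0326 in IgG and 0.0203 and 0.0701 in Input libraries.

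**Figure D5:**
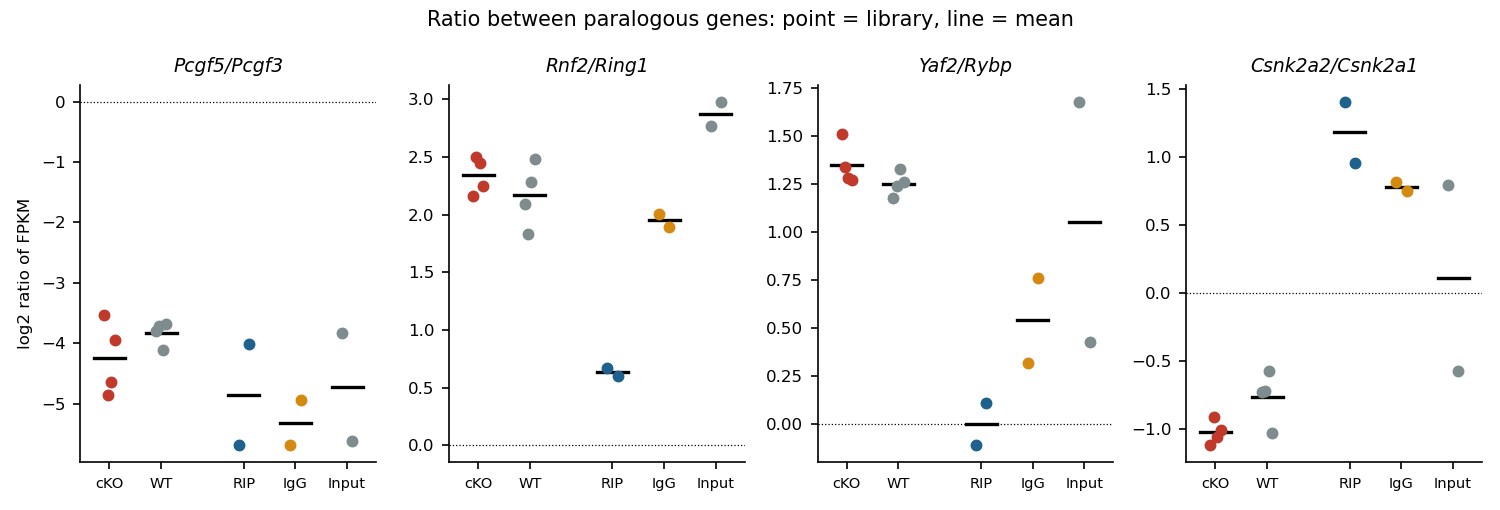
Log2 of the FPKM ratio between paralogous genes in each library of cKO and WT cortex and of RIP, IgG and Input, with lines at group means. The Rnf2 to Ring1 ratio lies at 0.60 and 0.67 in RIP, below all other groups, of which the lowest library is a WT library at 1.83.

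The wider machinery was described by 6 lists of genes. In cKO against WT cortex, the single gene called in these lists was Auts2 itself, whose call depends on the settings named above, among the 6 genes of the AUTS2 family and of further AUTS2 partners. None of 21 other PRC1 subunits, 10 PRC2 subunits, 8 genes of H2A deubiquitination, 10 other acetyltransferases or 11 other kinases of the casein kinase 1, Polo-like and GSK3 families passed (limma). Median log2 fold changes of the lists lay between -0.13 and 0.02. The deubiquitinase Usp7 averaged 60.8 ± 4.37 FPKM in cKO and 64.5 ± 2.90 FPKM in WT libraries, and Kdm2b, which brings PRC1 to CpG islands, 51.8 ± 5.56 FPKM in cKO and 50.8 ± 5.23 FPKM in WT libraries (n = 4 each). The histone-binding subunits of PRC2 averaged 67.8 ± 4.81 FPKM in cKO and 66.2 ± 2.04 FPKM in WT libraries for Rbbp4, and 55.3 ± 1.52 FPKM in cKO and 52.2 ± 1.71 FPKM in WT libraries for Rbbp7. Bap1, the H2A deubiquitinase, averaged 51.2 ± 0.976 FPKM in cKO and 49.7 ± 1.69 FPKM in WT libraries, and its partner Foxk2 34.9 ± 2.32 FPKM in cKO and 33.5 ± 1.30 FPKM in WT libraries. The acetyltransferase genes Kat6b and Kat7 averaged 25.3 ± 2.78 and 26.8 ± 2.07 FPKM in cKO, against 28.9 ± 2.53 and 26.9 ± 3.02 FPKM in WT libraries. The kinase genes Csnk1e and Csnk1a1 averaged 138 ± 2.44 and 134 ± 1.47 FPKM in cKO, against 141 ± 5.80 and 133 ± 5.14 FPKM in WT libraries.

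In RIP against IgG, 2 of 6 genes of the AUTS2 list, 5 of 21 PRC1 genes, 2 of 10 PRC2 genes, 3 of 8 deubiquitination genes, 4 of 10 acetyltransferase genes and 4 of 11 kinase genes passed, beside 23.4% of all genes. All passed upward except Max, the partner of MGA, in the PRC1 list and 3 kinase genes. Without IgG A no gene at all was called (limma), so these counts rest on both IgG libraries. Crebbp, the paralog of Ep300, averaged 150 ± 5.76 FPKM in RIP and 110 ± 4.94 FPKM in IgG libraries (n = 2 each, log2 fold change 0.45, adjusted p = 0.0248, limma), and 0.02 was left with length and GC trends removed. The AUTS2 paralog Fbrsl1 averaged 89.5 ± 3.31 FPKM in RIP and 52.0 ± 2.70 FPKM in IgG libraries (0.77). Within PRC1, Usp7 had the largest rise, with 102 ± 3.06 FPKM in RIP and 47.3 ± 5.84 FPKM in IgG libraries (1.10). Mga, the scaffold of the PCGF6 type, rose by 1.04, Phc1 by 0.80 and Kdm2b by 0.46 on the log2 scale.

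Of PRC2, Eed, which reads the methyl mark, rose by 1.00 and the accessory Jarid2 by 0.69. Of the genes that remove ubiquitin from H2A, Asxl1 rose by 1.04, Usp16 by 1.01 and Bap1 by 0.84. Of the acetyltransferases, Kat6b rose by 1.01, Kat6a by 0.78, Kat2a by 0.74 and the coactivator Ncoa1 by 0.65. With length and GC trends removed, Kdm2b (0.25, adjusted p = 0.141), Jarid2 (0.51, 0.0806), Kat2a (0.42, 0.0878) and Ncoa1 (0.47, 0.11) lost the call, as Crebbp did (limma). No gene named for this comparison kept its call in every fit with a library left out. Kdm2b, Jarid2, Kat2a, Crebbp and Eed kept theirs in none of these fits. Over them, the log2 fold change of Ncoa1 ranged from 0.39 to 0.92 and that of Eed from 0.67 to 1.32. The kinases Gsk3b, Gsk3a and Csnk1e fell by 1.36, 1.08 and 0.81, while Plk2 rose by 0.67. Gsk3b averaged 24.0 ± 1.86 FPKM in RIP and 63.0 ± 0.48 FPKM in IgG libraries (n = 2 each), and its fall was -1.51 with length and GC trends removed. The list medians were 0.24, 0.32, 0.35, 0.23, 0.61 and -0.12 in the order of the counts, beside 0.02 over all genes.

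In RIP against Input, 4 of 6 AUTS2-list genes, 12 of 21 PRC1 genes, 3 of 10 PRC2 genes, 2 of 8 deubiquitination genes and 8 of 10 acetyltransferase genes rose and none of these lists had a fall, beside 19.3% of all genes higher. Of 11 kinase genes, 3 rose and 4 fell. Auts2 RNA averaged 279 ± 0.421 FPKM in RIP and 162 ± 32.3 FPKM in Input libraries (n = 2 each, 0.80, adjusted p = 0.00883, limma). Against IgG it did not pass, with 275 and 275 FPKM in RIP and 234 and 239 FPKM in IgG libraries. Over Input, 0.25 (adjusted p = 0.237, limma) was left once length and GC trends were removed. Crebbp rose by 1.21, Fbrsl1 by 1.17 and Fbrs by 0.78, and 0.55, 0.59 and 0.19 were left with these trends removed, at which Fbrs lost its call (adjusted p = 0.5, limma). In PRC1, Phc1 averaged 109 ± 2.85 FPKM in RIP and 44.5 ± 3.19 FPKM in Input libraries (1.28), Mga rose by 1.06, Usp7 by 1.02 and Pcgf2 by 0.77.

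In PRC2, Phf1 rose by 1.34, Ezh1 by 0.80 and Jarid2 by 0.73. Phf1 lost its call with length and GC trends removed (0.84, adjusted p = 0.0955, limma), and Phf1, Ezh1 and Fbrs were each called in 1 of the 4 fits with a library left out. Of the genes named for this comparison, Crebbp, Fbrsl1, Phc1, Usp7, Mga, Asxl1, Kat6a, Kat6b and Gsk3b were called in all 4. Of the deubiquitination genes, Asxl1 rose by 1.35 and Usp16 by 0.93. Of the acetyltransferases, Kat6a and Kat2a each rose by 1.19, Kat6b by 0.94 and Kat5 by 0.87. Of the kinases, Gsk3b, Gsk3a and Csnk1a1 fell by 0.98, 0.96 and 0.60, and Plk2 rose by 0.64. The list medians were 0.79, 0.61, 0.09, 0.39, 0.88 and 0.05 in the order AUTS2, PRC1, PRC2, deubiquitination, acetyltransferase and kinase, beside -0.02 over all genes.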

How the data were processed

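The authors deposited FPKM per transcript in 3 tables, per the file headers, with GENCODE vM14 identifiers. Cuffdiff 2.2.1, STAR 2.5 and SAMtools, and the build GRCm38.p4 (mm10), stand in the submitters' processing notes. The sources used here do not state strand settings, filters or how libraries were scaled. Frontal cortex libraries were made with a TruSeq and pull-down libraries with a SMARTer stranded protocol, per the labels. The cKO 4 column was matched to its sample by library number, since its short name differs.

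Transcripts were summed per GENCODE vM21 symbol (127975 of 128508 matched in each table). Features with a mean of at least 1 FPKM were tested within a table by limma 3.58.1 (R 4.3.3, trend and robust settings) after transformation to log2(FPKM + 1), two-sided, and Benjamini-Hochberg adjustment over all features at 0.05. The log2(FPKM + 1) scale understates changes of low genes. With no counts, no counting interval can be given, and an exact 0 can be a failed estimate. Length and GC trends were removed per library with splines as an alternative. Tables and figures used Python 3.11.15, pandas 2.3.3, numpy 2.4.6 and matplotlib 3.10.9.

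The members and lists were chosen with earlier results of these data known. The text names the 10 members, their transcripts that were called or carried at least 10% of the gene in a group, and up to 4 called genes with the smallest p of each list, or, with none called, the 2 highest. Max, Gpank1, Trmt1l, Rybp-ps and Xist were named for other reasons given with them or after their values were seen.

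Per the series design, the pull-down libraries form matched trios, which pairs them. Within a trio, departures from the group mean were almost unrelated across genes, with r = 0.0088 between RIP and IgG and r = 0.012 between RIP and Input.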

Additional observations from a re-analysis of the deposited data

Results flagged for a closer look

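In 84 groups of 4 libraries tested for an extreme value, 5 had a library whose gap to the next, as a share of the whole range, was over Dixon's 95% critical value. Chance gives about 1 in 20 groups, so this number is near what chance gives. Rybp in cKO 1 was 10.6 FPKM, below 12 to 12.3 FPKM in the other cKO libraries. Pcgf5 in WT 3 was 1.14 FPKM, below 1.49 to 1.53 FPKM in the other WT libraries. In WT 4, Ep300 was 15.6 FPKM, below 18.7 to 19.3 FPKM, Rnf2 was 42.4 FPKM, above 40.2 to 40.5 FPKM, and Rbbp7 was 54.8 FPKM, above 51.2 to 51.6 FPKM in the other WT libraries.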

How the results depend on the processing

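In cKO against WT, 0 members and 0 member transcripts were called under every alternative run (limma). The 3 genes called became 1 with no filter on low values, 1 without trend and robust settings, 1 with Xist state as a covariate and 0 without WT 1 and WT 2 (356 at an unadjusted p under 0.05, limma), and 1 to 3 when single libraries were left out. The 2 omissions of several libraries were chosen after seeing the data. In RIP against IgG, the 3406 genes became 1876 without trend and robust settings and 0 to 1806 with a library left out. The 2 members became 1 with no filter, 0 without trend and robust settings, 0 with length and GC trends removed, 1 with the most abundant transcript and 0 to 0 with a library left out, and 1 member transcript was called at a mean of at least 5 FPKM. In RIP against Input, the 5 members became 3 with length and GC trends removed and 1 to 5 with a library left out, where genes numbered 1395 to 3471. The 2 member transcripts became 0 with no filter, 5 at a mean of at least 5 FPKM, 0 without trend and robust settings, 0 with the replicate block and 0 to 0 with a library left out. The trio block changed no other call of a gene or transcript named in the text, and the genes called with it numbered 3455 in RIP against IgG and 5222 in RIP against Input. In cKO and WT the libraries share only a number, with deviations correlated at 0.176, 0.017, -0.039 and 0.066. The block on it gave 4 genes and 0 members.

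With a pseudocount of 1, the log2 ratio of Pcgf5 to Pcgf3 was -3.28 in cKO, -3.12 in WT, -3.45 in RIP and -3.97 in IgG, that of Rnf2 to Ring1 0.57 in RIP, 1.76 in IgG and 2.52 in Input, that of Yaf2 to Rybp 1.19 in WT and that of Csnk2a2 to Csnk2a1 0.72 in IgG. With the most abundant transcript only, Rnf2 to Ring1 was 2.5 in WT, 1.03 in RIP and 1.61 in IgG, Yaf2 to Rybp 0.87 in cKO, 0.80 in WT and -0.59 in RIP, and Csnk2a2 to Csnk2a1 -2.58 in cKO, -2.26 in WT, -0.02 in RIP and -1.11 in IgG.

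Of log2 fold changes of single genes and transcripts, 86 values changed sign, and none of them was called in either fit. In cKO against WT, with protein-coding transcripts only and with the most abundant transcript only, Ring1 was 0.03 in both, Rybp 0.00 in both and Yaf2 0.07 in both, and Kdm2b was -0.02 with protein-coding transcripts only. With median-ratio rescaling Yaf2 and Kat7 were 0.00. With quantile normalization Csnk2a1 was -0.03, Csnk2b -0.02, Csnk1a1 -0.01, Kdm2b -0.00, Rybp-201 -0.01, Csnk2a1-201 -0.01 and Csnk2b-201 -0.02. With Xist state as a covariate Ring1-201 was -0.00 and Rybp-201 -0.01. In RIP against IgG, Ring1 was -0.12 with protein-coding transcripts only and with the most abundant transcript only, Csnk2b -0.10 with quantile normalization, Rybp-201 -0.00 with median-ratio rescaling and -0.12 with quantile normalization, and Csnk2b-204 -0.00 with a pseudocount of 5 and -0.00 with quantile normalization. In RIP against Input, Rybp-203 was -0.05 with a pseudocount of 5.

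With single libraries left out, sign changes in RIP against IgG gave ranges of -0.07 to 0.49 for Csnk2a1-204, -0.24 to 0.33 for Csnk2a2-204, -0.73 to 0.92 for Csnk2b-204, -0.11 to 2.92 for Csnk2b-209, -2.10 to 1.09 for Pcgf3-205, -0.49 to 0.25 for Ring1-201, -0.00 to 0.17 for Rybp, -0.20 to 0.25 for Rybp-201, -0.38 to 1.66 for Rybp-203 and -0.58 to 0.92 for Yaf2-202. In RIP against Input they were -0.17 to 0.72 for Csnk2a2, -0.34 to 0.13 for Csnk2a2-201, -0.82 to 2.53 for Csnk2a2-210, -0.67 to 2.08 for Csnk2b-209, -0.25 to 0.05 for Pcgf3-201, -2.11 to 0.09 for Pcgf3-205, -0.53 to 0.38 for Rybp, -0.15 to 0.09 for Rybp-201 and -1.20 to 1.68 for Rybp-203. In cKO against WT they were -0.00 to 0.03 for Csnk1a1, -0.01 to 0.02 for Csnk2a1, -0.21 to 0.00 for Csnk2a2-209, -0.01 to 0.04 for Csnk2b, -0.01 to 0.06 for Csnk2b-201, -0.28 to 0.14 for Ep300-207, -0.04 to 0.07 for Kat7, -0.02 to 0.11 for Kdm2b, -0.02 to 0.06 for Rbbp4, -0.17 to 0.00 for Ring1, -0.03 to 0.11 for Ring1-201, -0.04 to 0.06 for Rybp-201, -0.03 to 0.02 for Yaf2 and -0.00 to 0.14 for Yaf2-201. The cause of these changes was not tested, apart from fewer libraries or genes in a fit. With 2 libraries a group in the pull-down and depth unknown, small differences between low transcripts cannot be resolved.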
